A study of Mus musculus with 6 samples.

Results

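Of the 55416 gene rows in the deposited counts from tibialis anterior (TA) muscle, 49 encode proteins of the lysosome, and these are described here. They were taken by symbol from a fixed list, which was chosen with earlier results of these data known. They fall into 4 classes: 10 cathepsins, 20 other hydrolases and soluble lumenal proteins, 6 membrane proteins and 13 proton pump genes. The last are genes of the vacuolar proton pump (V-ATPase) with its accessory proteins. All 49 passed the filter on low counts and are among the 15623 genes tested. RNA was sequenced from 3 wild-type (WT) mice and 3 SELENOW knockout (KO) mice, all aged naturally to 24 months, and each library is 1 sample. The KO mice lack exon 4 of Selenow, removed with CRISPR-Cas9 and a pair of sgRNAs; both lines were kept on a C57BL/6N background, and no further allele, transgene or drug is named for these samples. The number of founder lines is not given in the sources used here, so an effect of the line cannot be told apart from an effect of the deletion.

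The lysosome is the acidic compartment in which proteins, lipids, glycans and glycogen delivered by endocytosis and autophagy are broken down. Its enzymes work at low pH, which the V-ATPase maintains by pumping protons across the membrane, and the membrane proteins protect the boundary, export the products and release calcium. In muscle the compartment is known above all from storage diseases such as Pompe disease, in which the loss of acid alpha-glucosidase leaves glycogen inside swollen lysosomes, and from autophagy during fasting and disuse. Macrophages are rich in several of the same enzymes, so RNA from whole muscle mixes fibers with other cells, and fewer cells of a type and less RNA per cell cannot be told apart in these counts.

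Total counts were 25351976 to 29111213 in the WT and 27345022 to 27815342 in the KO libraries, and mitochondrially encoded genes took 29.1% to 37.3% of them in WT and 35.4% to 40.3% in KO. The targeted gene, Selenow, had CPM values (counts scaled to library size with TMM factors) of 268, 245 and 219 in WT and 193, 212 and 210 in KO (log2 fold change -0.25, unadjusted p = 0.105 in edgeR's quasi-likelihood test). Loss of the exon was not measured, because the counts are per gene. The 10 fast fiber markers, among them Ckm and Myh4, summed to 91700 to 116000 CPM in WT and 99400 to 113000 in KO. Over the counts of the whole table, WT replicate 1 differed most within WT. Its chi-square per degree of freedom was 79.6 against replicate 2 and 57.3 against replicate 3, and that between replicates 2 and 3 was 25.4. The mitochondrial share was 37.3% in WT replicate 1, 29.1% in replicate 2 and 29.8% in replicate 3. WT replicate 3 stood apart in markers of other cells. All 14 tested genes of the macrophage marker list and all 9 fibroblast markers were highest in that library. Cd68, a macrophage gene outside that list, was highest in KO replicate 1. Results that rest on WT replicate 3 are given with and without it.

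Levels were compared between genes as CPM per kilobase of counted exon. The genes Ctsd and Psap, for soluble proteins, and Lamp1, for the lysosomal coat, stood highest. In WT muscle the aspartic protease Ctsd, which cleaves proteins and activates other enzymes, stood at 122 ± 8.44 (SD, n = 3), and Psap, the precursor of the saposins that present lipids to the enzymes, at 101 ± 1.22 (SD, n = 3). The membrane glycoprotein Lamp1 followed with 75.8 ± 5.04 (SD, n = 3). These spreads do not overlap, and the fourth gene in the order, the cysteine protease Ctsb, was far lower at 21.4 ± 2.46 (SD, n = 3). Ctsb did not differ beyond its spread from Gaa, the acid alpha-glucosidase lost in Pompe disease, at 20.1 ± 2.94 (SD, n = 3), nor Gaa from Atp6ap1, an accessory protein of the proton pump, at 18.9 ± 1.10 (SD, n = 3).

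Of the 49 genes, 11 were under 1 CPM per kilobase in WT, 8 of them among the other hydrolases and 3 among the cathepsins, and the lowest was the arylsulfatase Arsb at 0.190. The median was 5.79 for the cathepsins, 1.70 for the other hydrolases, 8.15 for the membrane proteins and 7.42 for the V-ATPase genes. The pump subunits were the most even class, from 1.05 for Atp6v1h to 18.9 for Atp6ap1, an 18.0-fold range against 196-fold for the cathepsins. Exons of rarely used transcripts add to the counted length, so a level per kilobase can be too low for a gene with many annotated exons, such as Atp6v1h with 9746 counted bases.

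**Figure D1:**
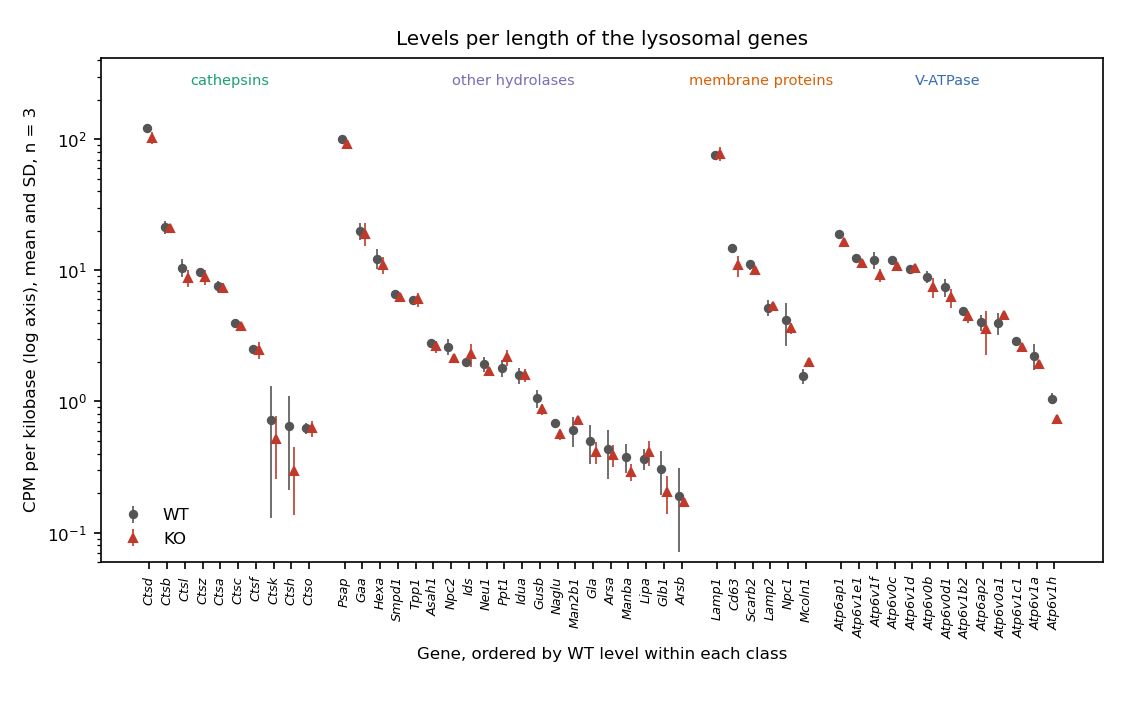
Level of each of the 49 lysosomal genes in CPM per kilobase of counted exon (log axis), with circles for the WT mean and triangles for the KO mean and bars for the SD of 3 libraries, ordered by WT level within each class. Ctsd, Psap and Lamp1 stand above all others in both genotypes, and the WT and KO points of most genes nearly coincide.

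The comparison of KO with WT muscle asks whether the genes of protein breakdown differ when SELENOW is missing in old age. Of the 49 lysosomal genes, 20 had a log2 fold change within 0.15 of zero (40.8%, against 42.1% of all tested genes), and none had a Benjamini-Hochberg adjusted p under 0.05 in edgeR's quasi-likelihood test (lowest 0.301 among the 49). No gene of the whole table did either in edgeR, where the lowest was 0.0588 and 1545 genes had an unadjusted p under 0.05; DESeq2 gave 45 genes of the table (0.288%) and none of the 49. The study's DEG thresholds ask for p under 0.05, unadjusted, together with a fold above 1.5 or below 0.7, and 1 of the 49 met them, Atp6v1h, lower in KO. They called 5.35% of all tested genes, 3.14% as lower and 2.21% as higher. In DESeq2 they called 2 of the 49, Atp6v1h and Ctsh, against 4.94% of all genes.

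With no limit on fold change, 4 of the 49 had an unadjusted p under 0.05, Atp6v1h, Atp6v1f and Cd63 lower and Mcoln1 higher in KO, against 9.89% of all genes (5.16% lower, 4.73% higher). By this measure the share of lysosomal genes was near the background. The direction was less even: 37 of the 49 log2 fold changes were under zero, as were 50.6% of all genes. The median was -0.14 against -0.0042. By library, the median log2 difference of the 49 from the WT mean was -0.08, 0.002 and 0.033 in WT. In KO it was -0.088, -0.21 and -0.11, so KO replicate 1 nearly met WT replicate 1. The summed CPM of the 49 was 1780, 1950 and 1910 in WT and 1750, 1680 and 1780 in KO, with the groups meeting at 1780. Libraries of both genotypes were fully separated for 12 genes (15.4% of all genes were): 10 were lower in KO, 20.4% of the 49 against 7.87% of all genes, and 2 were higher, 4.08% against 7.53%. Genes measured in the same 6 libraries are not independent of each other, and several of these gaps were narrow. The list was chosen with earlier results of these data known, so its shares against all genes are descriptions and not independent tests. Scaling by library totals in place of TMM moved the median of all genes to -0.25 and that of the lysosomal genes to -0.39, with 47 of the 49 under zero. Under that scaling 24 of the 49 were separated and lower and 0 separated and higher, against 24.0% and 1.55% of all genes.

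**Figure D2:**
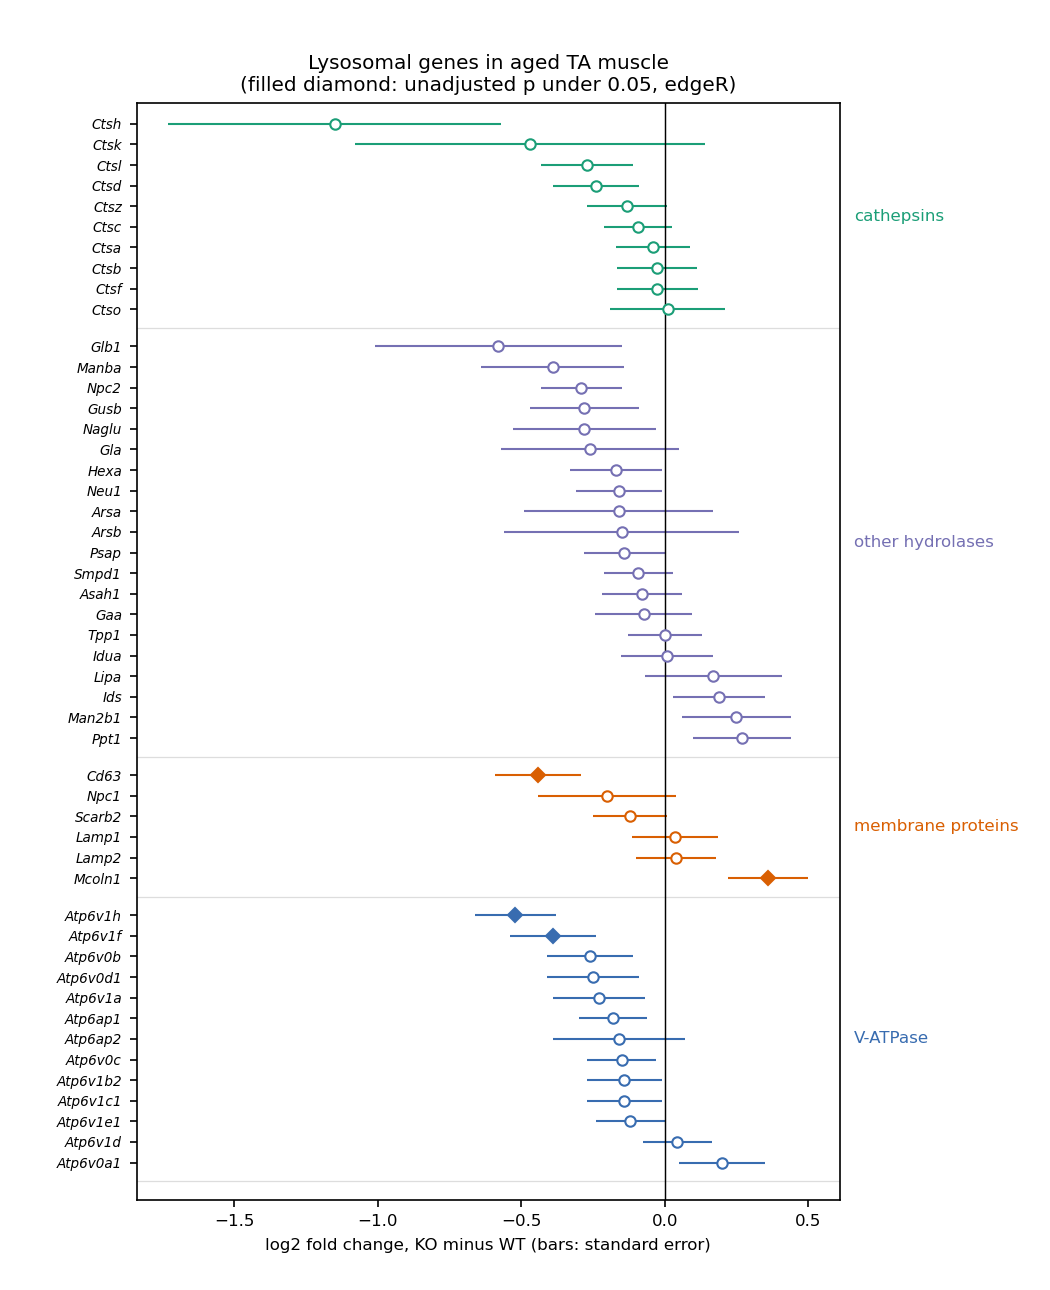
Log2 fold change of KO minus WT for the 49 genes by class, with bars for the standard error from edgeR's fit; filled diamonds have an unadjusted p under 0.05. The 4 diamonds are Cd63, Mcoln1, Atp6v1h and Atp6v1f, and 37 of the 49 points lie left of zero, most of them by less than 0.3.

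The 10 cathepsins, the lysosomal proteases, had a median log2 fold change of -0.11 (-0.19 without KO replicate 1), with 9 of the 10 under zero and none with an unadjusted p under 0.05. Ctsd had CPM of 270, 308 and 280 in WT and 250, 215 and 262 in KO. The KO values all lay under the WT values, with a log2 fold change of -0.24 (standard error 0.15, unadjusted p = 0.123 in edgeR). An exact permutation test gave p = 0.1 (two-sided), which is the least that 3 against 3 libraries can give. The gene carries 49.6% of the summed cathepsin level in WT, and 34.4% of its counted bases are also exons of the annotated gene Gm49369 on the same strand, so reads there may have been lost or assigned to either. Summed with Ctsd included, the cathepsins reached 553, 594 and 582 CPM in WT and 535, 496 and 507 in KO, without overlap. The median log2 difference of the 10 genes from the WT mean, which no single gene dominates, did overlap. It was -0.068, -0.029 and 0.058 in the WT libraries and -0.042, -0.12 and -0.20 in the KO libraries.

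Ctsh, an aminopeptidase-like cathepsin that macrophages and lung cells express, had the lowest log2 fold change of the 49, -1.15, but a wide standard error of 0.58 (unadjusted p = 0.0871, edgeR). It had CPM of 2.15, 1.46 and 5.20 in WT and 2.09, 0.693 and 1.20 in KO. The groups overlapped, and WT replicate 3 alone stood clear of the other libraries. Without that library the log2 fold change was -0.44 (unadjusted p = 0.328, edgeR). Ctsk, the collagen-degrading cathepsin of osteoclasts and fibroblasts, went from -0.47 to 0.46 when the same library was left out, with CPM of 0.608, 0.529 and 2.11 in WT and 1.05, 0.326 and 0.973 in KO. Ctso, with the only cathepsin value above zero, had a log2 fold change of 0.011 and CPM of 2.86 to 3.70 in KO against 2.99 to 3.52 in WT. Ctsb, Ctsf and Ctsa lay between -0.041 and -0.025, and Ctsc and Ctsz had -0.093 and -0.13. Ctsl, a cysteine protease that is used in muscle as a marker of atrophy, had -0.27 (standard error 0.16) with overlapping libraries.

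The 20 other hydrolases and lumenal proteins had a median of -0.14, with 14 under zero and none with an unadjusted p under 0.05. Psap had CPM of 276, 280 and 273 in WT and 238, 244 and 272 in KO. Its groups did not overlap, but KO replicate 3 came close to the lowest WT library, and the log2 fold change was -0.14 (standard error 0.14). Npc2, the lumenal protein that hands cholesterol to the membrane protein encoded by Npc1, had CPM of 13.1, 13.1 and 16.5 in WT and 11.7, 11.3 and 12.1 in KO. All KO libraries lay below all WT libraries, with a log2 fold change of -0.29 (standard error 0.14, unadjusted p = 0.0584 in edgeR), which was -0.17 without WT replicate 3. Naglu, which removes N-acetylglucosamine from heparan sulfate, showed the same order at a low level, 1.66, 1.96 and 1.81 CPM in WT and 1.33, 1.55 and 1.61 in KO.

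The extremes of this class were not separated from the spread. Glb1, the lysosomal beta-galactosidase whose activity is a stain for senescent cells, had the lowest log2 fold change, -0.58 (standard error 0.43, unadjusted p = 0.2 in edgeR), with CPM of 1.14, 0.529 and 1.09 in WT and 0.806, 0.612 and 0.411 in KO; the WT library with the lowest value was below 2 KO libraries. Ppt1, which removes palmitate from proteins, had the highest, 0.27 (standard error 0.17, unadjusted p = 0.137 in edgeR), with CPM of 7.22, 5.48 and 7.21 in WT and 7.01, 9.13 and 7.78 in KO, and here too the groups overlapped. Gaa, the best known of these enzymes in muscle, had 96.1 ± 14.0 CPM in WT (SD over 3 libraries) and in KO 91.4 ± 17.6 (SD over 3 libraries), a difference far smaller than the spread. Tpp1, a tripeptidyl peptidase, and Idua, which cleaves iduronic acid from glycosaminoglycans, were level at 0.00098 and 0.0075.

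Among the 6 membrane proteins, Cd63 and Mcoln1 lay on opposite sides of zero, each with an unadjusted p under 0.05, and the median of -0.043 changed sign with the libraries used: it was -0.12 without WT replicate 1, 0.06 without WT replicate 2 and 0.0017 without WT replicate 3. Cd63, a tetraspanin of late endosomes, lysosomes and exosomes, had CPM of 55.4, 51.8 and 55.4 in WT and 48.0, 33.5 and 38.6 in KO. The WT libraries were tight and all KO libraries were below them, with a fold change of 0.739 (log2 fold change -0.44, standard error 0.15, unadjusted p = 0.0116, adjusted p = 0.367 in edgeR). Without WT replicate 3 it was -0.42, and without KO replicate 2, the lowest library, it was -0.32 and the unadjusted p was 0.0664. The pseudogene Cd63-ps, to which the counting could have assigned reads of Cd63, had 135, 183 and 158 counts in WT and 115, 77 and 113 in KO, so its counts were lower too.

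Mcoln1, the calcium channel TRPML1 through which lysosomes release calcium, was the only member of this class with higher values in every KO library, at CPM of 11.5, 13.6 and 10.5 in WT and 14.6, 16.2 and 14.8 in KO. The fold change was 1.28 (log2 fold change 0.36, standard error 0.14, unadjusted p = 0.0227, adjusted p = 0.440 in edgeR). Leaving out WT replicate 3 gave 0.28 with an unadjusted p of 0.0922, and leaving out KO replicate 2 gave 0.31 with 0.0769 (edgeR). With library totals it was 0.11, with an unadjusted p of 0.515 (edgeR). The structural coat was level: Lamp1 had CPM of 187, 213 and 208 in WT and 184, 206 and 233 in KO, a log2 fold change of 0.036 that turned to -0.017 without WT replicate 1, and Lamp2, the receptor of chaperone-mediated autophagy, had 0.039. Scarb2, which carries glucocerebrosidase to the lysosome, had -0.12, and the cholesterol exporter Npc1 had -0.20 with one WT library, replicate 2, at 65.3 CPM against 31.4 to 44.3 in all others.

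The V-ATPase held the called gene. The pump couples a cytosolic V1 sector, which burns ATP, to a V0 sector in the membrane, which carries the protons. Of its 13 genes, 11 had a log2 fold change under zero, with a median of -0.16, and 5 (38.5%, against 7.87% of all genes) were lower in KO without overlap of the libraries. Atp6v1h encodes subunit H of V1, which is needed for the assembled pump to work and holds the free V1 sector inactive. It lies on chromosome 1 from 5140241 to 5232752 in GRCm39, on the plus strand, and had CPM of 9.37, 11.3 and 9.95 in WT and 7.45, 7.46 and 6.51 in KO. The groups lay well apart. It fell from 10.2 ± 0.974 CPM to 7.14 ± 0.547 (SD over 3 libraries), a fold of 0.7. On the log2 scale this was -0.52 (standard error 0.14, unadjusted p = 0.00358, adjusted p = 0.301 in edgeR). The unadjusted p stayed under 0.05 in all 6 fits that left out 1 library, with log2 fold changes from -0.57 to -0.43. The fold change sat at the threshold itself, so the call was lost without WT replicate 2 or KO replicate 3, with a replicate block and without the mitochondrially encoded genes, while the unadjusted p in these fits was 0.0202, 0.0201, 0.00669 and 0.00353 (edgeR).

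Atp6v1f, which encodes the small subunit F of the central stalk, had CPM of 14.6, 12.7 and 11.0 in WT and 10.6, 8.52 and 10.1 in KO. The groups did not overlap, though KO replicate 1 and WT replicate 3 were close, and the log2 fold change was -0.39 (standard error 0.15, unadjusted p = 0.0252, adjusted p = 0.443 in edgeR). The unadjusted p was 0.0975 without WT replicate 1, 0.0510 without WT replicate 2 and 0.106 without KO replicate 2 (edgeR). The other V1 genes, for the catalytic core and the stalks, ranged from -0.23 for Atp6v1a, the ATP-hydrolysing subunit A, to 0.044 for Atp6v1d, the rotor subunit D. Over the 7 V1 genes the median was -0.14, and 6 were under zero.

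In the V0 sector 3 of the 4 genes were under zero. Atp6v0c, which encodes the proton-carrying ring subunit, had CPM of 41.9, 40.9 and 38.7 in WT and 38.5, 33.6 and 37.6 in KO, and Atp6v0b, the related ring subunit, 20.5, 17.3 and 17.3 in WT and 16.5, 12.2 and 17.1 in KO. Neither pair of groups overlapped, but both gaps were narrow, and the log2 fold changes were -0.15 (standard error 0.12) and -0.26 (standard error 0.15). The pseudogene Atp6v0c-ps2 had 190 to 268 counts per library, so part of the reads of Atp6v0c may be counted elsewhere. Atp6v0a1, which encodes an isoform of the large membrane subunit a, went the other way with CPM of 20.4, 28.9 and 28.8 in WT and 29.4, 30.5 and 29.6 in KO. Its log2 fold change of 0.20 rested on WT replicate 1, without which it was 0.049, and it was -0.068 when scaled by library totals. Atp6ap1, the accessory protein needed to assemble V0, had CPM of 53.3, 58.6 and 59.4 in WT and 52.4, 48.9 and 49.7 in KO, a log2 fold change of -0.18 (standard error 0.12), without overlap. The V-ATPase genes summed to 330, 350 and 348 CPM in WT and 323, 299 and 322 in KO, all KO libraries below all WT libraries. Summed CPM overlapped for the other hydrolases (507, 540 and 531 in WT, 492, 469 and 509 in KO). The sums of the membrane proteins overlapped too (393, 461 and 451 in WT, 401, 412 and 443 in KO).

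**Figure D3:**
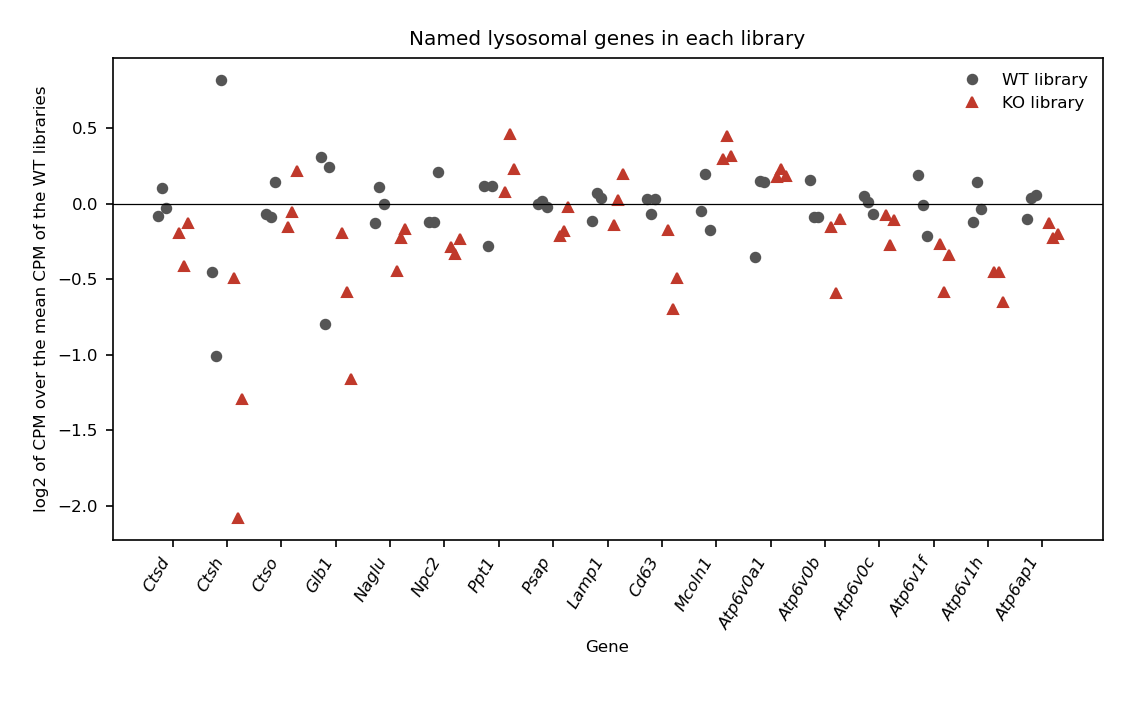
Log2 of each library's CPM over the mean CPM of the WT libraries for the 17 genes given in every library, with circles for WT and triangles for KO. The triangles of Atp6v1h, Atp6v1f and Cd63 lie below all circles and those of Mcoln1 above them, while Ctsh has 1 circle, WT replicate 3, far above the rest.

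Other genes of the lysosome were taken from 4 further lists. Of 20 tested further hydrolases 11 were under zero, with a median of -0.037, and of 20 tested further membrane proteins 9 were, with a median of 0.031. The 5 tested further pump subunits had a median of -0.035, and the 13 genes that sort enzymes to the lysosome, such as the mannose 6-phosphate receptors M6pr and Igf2r, had 0.012 with 5 under zero. Of these 4 lists 1 gene passed the DEG thresholds, a smaller share than the 5.35% of all tested genes. It was Slc11a1, a metal transporter of macrophage phagosomes. It had CPM of 0.973, 0.591 and 1.25 in WT and 0.403, 0.285 and 0.224 in KO (log2 fold change -1.61, standard error 0.46, unadjusted p = 0.00403, adjusted p = 0.301 in edgeR). It passed the thresholds in all 6 fits without 1 library. At 6 to 38 counts per library it was close to the depth limit. There 3 counts come to 0.103 to 0.118 CPM before TMM scaling.

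Transcription of lysosomal genes is known to be driven by TFEB, TFE3 and MITF, which bind a palindromic E-box. None of these factors differed beyond its spread in RNA: Tfeb had 21.7 ± 2.24 CPM in WT and 19.3 ± 2.15 in KO, Tfe3 3.73 ± 0.321 and 4.14 ± 0.427, and Mitf 12.5 ± 1.18 and 12.7 ± 0.541 (SD over 3 libraries). Among the 15 regulators, which include the folliculin and Rag proteins that hold these factors in the cytosol, 8 were under zero, the median was -0.12, and none had an unadjusted p under 0.05 in edgeR. RNA levels do not show where the factors were in the cell.

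The E-box letters were searched on both strands in windows from 250 bases before to 50 after the RefSeq start site (GRCm38.p6), which were at hand for 42 of the 49 genes. The core CACGTG was in windows of 14 of these 42 genes, 33.3%, against 8.09% of all 27025 genes and 11.7% of the 10146 tested genes with a window. The longer TCACGTGA, which contains it, was in 6 of the 42, or 14.3%, against 1.12% and 2.19%. Of these 6 genes 5 had a log2 fold change under zero, among them Ctsd, and Mcoln1 was above it. Neither Ctsd nor Mcoln1 had an adjusted p under 0.05 in edgeR. One stretch from each of the 6 is shown. Capitals mark the TCACGTGA letters, and each is 26 bases, 5′ to 3′ on the gene's strand.
Ctsd: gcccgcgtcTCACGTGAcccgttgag
Mcoln1: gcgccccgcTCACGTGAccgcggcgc
Ctsa: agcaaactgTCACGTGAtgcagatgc
Gla: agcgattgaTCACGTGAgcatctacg
Atp6v0d1: ctactgcggTCACGTGAgacgcggtg
Atp6v1a: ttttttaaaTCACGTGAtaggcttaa
The letters begin 99 bases before the start site in Ctsd (chr7:142387910-142387935, minus strand), 46 in Mcoln1 (chr8:3500464-3500489, plus strand) and 13 in Ctsa (chr2:164833751-164833776, plus strand). They begin 228 bases before it in Gla (chrX:134601217-134601242, minus strand), 132 in Atp6v1a (chr16:44139375-44139400, minus strand) and span it in Atp6v0d1 (chr8:105566052-105566077, minus strand). The windows of Ctsa and Gla hold another copy each, not shown. The core was in genes on both sides of zero: of the 14 genes with it 12 were under zero with a median log2 fold change of -0.23, and of the 28 without it 18 were, with a median of -0.13. A match is a run of letters, not a measured binding site.

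Markers of other cell types moved with some of these genes. The 17 macrophage markers summed to 40.6, 24.4 and 100 CPM in WT and 35.1, 24.8 and 17.5 in KO, and none of them was at 0 in any library. Of the 14 that were tested 13 were under zero, with a median log2 fold change of -1.10 that became -0.38 without WT replicate 3. Cd163 was above zero, at 0.27. The macrophage gene Cd68, held here among the further membrane proteins, had 0.052, with 5.92 CPM in KO replicate 1 against 5.53 in WT replicate 3. One of the 14 (7.14%) was called lower by the DEG thresholds, against 3.14% of all tested genes. This was the growth factor receptor Csf1r, with CPM of 4.99, 4.61 and 8.27 in WT and 4.35, 2.45 and 4.26 in KO (log2 fold change -0.69, adjusted p = 0.470 in edgeR). It passed them in 4 of the 6 fits without 1 library and not without WT replicate 3, where it had -0.38 and an unadjusted p of 0.167, nor without KO replicate 2. The 9 fibroblast markers summed to 158, 83.4 and 295 CPM in WT and 158, 73.5 and 121 in KO, none of them at 0 in any library, with a median of -0.63 that became 0.038 without WT replicate 3. All 8 endothelial markers had a log2 fold change above zero, with sums of 64.6 to 107 CPM in WT and 97.4 to 115 in KO, and a median of 0.29. Without WT replicate 3, the lowest library, the median was 0.12 and 3 of the 8 were under zero, and with library totals it was 0.048, also with 3 under zero.

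WT replicate 3 was also the highest library for 16 of the 49 lysosomal genes, 32.7%, against 16.3% of all tested genes. These were 4 cathepsins, 7 other hydrolases, 3 membrane proteins and 2 pump genes. Leaving it out brought the medians to -0.083 for the cathepsins, -0.10 for the other hydrolases, 0.0017, above zero, for the membrane proteins and -0.15 for the V-ATPase. Atp6v1h and Cd63 kept an unadjusted p under 0.05 without this library (0.00675 and 0.0298 in edgeR). The part of other cell types in the differences of single enzymes was not tested.

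**Figure D4:**
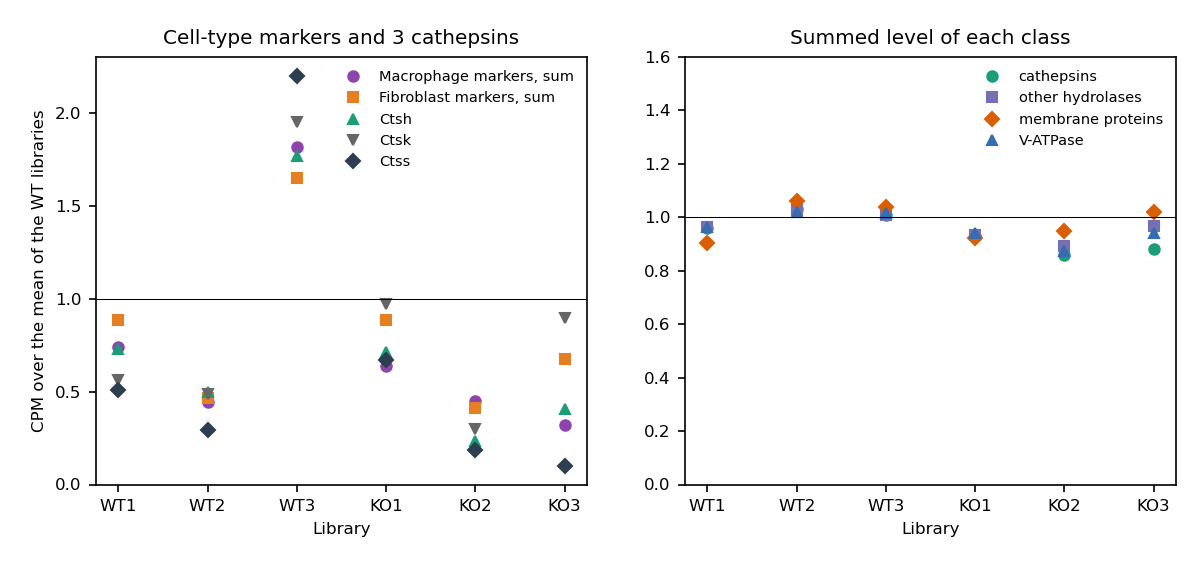
Left, CPM over the mean of the WT libraries for the summed macrophage and fibroblast markers and for Ctsh, Ctsk and the macrophage-rich cathepsin Ctss, which was chosen after its values were seen; right, the same for the summed level of each class. On the left all 5 are highest in WT replicate 3, and on the right all points stay near 1. The cathepsin and V-ATPase sums of the 3 KO libraries lie below those of the WT libraries. The sums of the other hydrolases and of the membrane proteins overlap between the genotypes.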

How the data were processed

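Paired-end reads were mapped by the authors (Hisat2) and counted per gene (featureCounts); they deposited raw counts of 55416 genes in 6 libraries, without normalization. The submitters' processing notes name GRCm39 and the paper's methods name GRCm38; gene positions are those of the deposited table. The library kit does not mark strand, and the handling of shared reads is not given in the sources used here, so 16 of the 49 genes whose exons overlap another gene are less certain. The WT column without a number was taken as replicate 1, since the others name 2 and 3. Symbols were matched by Ensembl identifier for 52083 genes.

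Genes were filtered with filterByExpr, scaled by TMM and fitted with edgeR's robust quasi-likelihood test (version 4.0.16, R 4.3.3), with Benjamini-Hochberg adjustment over 15623 genes. All CPM values are scaled by TMM, except the depth limit, which is taken from library totals. The paper gives 3 mice per group, and the labels number the samples without naming the animals. P-values measure only the spread between libraries of the same group, 3 in each, and edgeR draws on all tested genes to estimate it. Promoter sequences are RefSeq's. Genes given in every library are those past the DEG thresholds, with an unadjusted p under 0.05 or without overlap, and in each class the largest rise and fall and the highest level per kilobase; Ctsk was added after its values were seen. Genes of the further lists were named if called, with the 3 transcription factors; the members and lists were chosen with earlier results of these data known. The alternatives were DESeq2 (version 1.42.0), other filters and scalings, a replicate block, no robust estimation, another fold threshold and leaving out each library. The steps were tested on simulated data.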

Additional observations from a re-analysis of the deposited data

How the results depend on the processing

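With 3 libraries per genotype a single gene needs a large or very even difference to pass, and the standard errors of the 49 genes, 0.12 to 0.61 on the log2 scale, set that limit. The count of 1 called lysosomal gene was 2 with DESeq2, with no filter and with no robust estimation, adding Ctsh each time, 1 with the replicate block, where Ctsh took the place of Atp6v1h, 0 without mitochondrially encoded genes, 0 at an absolute log2 fold change over 1, and 7 with library totals, a scaling added after the data were seen. Leaving out a library gave 0 to 3 such genes: 3 without KO replicate 1 and 0 without KO replicate 3. With no filter, Ctsh had an adjusted p of 0.0157 in edgeR, the only one of the 49 under 0.05 in any alternative. The 4 genes with an unadjusted p under 0.05 became 5 with the replicate block, 18 with library totals, and 1 to 7 without 1 library: 7 without KO replicate 1 and 1, Atp6v1h, without KO replicate 2. The 12 genes without overlap became 24 with library totals, 11 without mitochondrially encoded genes and 13 to 20 without 1 library, where overlap is easier to avoid: 20 without WT replicate 1 and 20 without KO replicate 1. The called genes of the whole table went from 836 to 1780 with no filter, 1792 with library totals and 315 at an absolute log2 fold change over 1, and stood at 814 to 1072 without 1 library. With library totals 80 of the called genes were higher and 1712 lower, against 345 and 491, and Selenow had -0.49 with an unadjusted p of 0.0127 in edgeR. Among the 17 genes given in every library, the sign turned for Ctso (-0.24 with library totals, and -0.10 to 0.092 without 1 library), Lamp1 (-0.21, and -0.052 to 0.12) and Atp6v0a1 (-0.068 with library totals). Over all 49 genes, 15 changed sign in at least 1 of the fits without 1 library, Ctsk and Arsb among them and none of the V-ATPase genes; the median of the membrane proteins did too (-0.12 to 0.06). The replicate numbers did not pair the mice: deviations of same-numbered libraries correlated at -0.0736 to 0.0596. Of 238 values of named genes under the alternatives, 211 kept their direction and their side of an unadjusted p of 0.05 (edgeR or DESeq2). A call lost through the fold limit alone, as for Atp6v1h, does not count as a change here. The cause of the others was not tested.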

Other observations

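Some isoforms of the pump that are known from kidney and testis were nearly silent in TA muscle. Atp6v1g3 and Atp6v1e2 had no count in any of the 6 libraries, which allows up to 0.103 to 0.118 CPM before TMM scaling. Atp6v1b1 was counted in KO replicate 3 only, at 0.0748 CPM. Atp6v0d2, an isoform of osteoclasts and macrophages, had 1.19 CPM in WT replicate 3 and at most 0.242 CPM in every other library. The broadly used Atp6v1g1 stood at 60.1 to 68.9 CPM, and the sum of the further pump subunits was 103 to 114 CPM in WT and 96.7 to 109 CPM in KO. They were picked for mention with their values known, and those with few counts were not tested.

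The 2-pore calcium channel gene Tpcn1, also of the lysosomal membrane and chosen after its values were seen, had CPM of 16.2, 18.2 and 17.3 in WT and 18.6, 23.2 and 21.9 in KO (log2 fold change 0.30, standard error 0.13, unadjusted p = 0.0370, adjusted p = 0.481 in edgeR). Like Mcoln1 it was higher in every KO library, as were 7.53% of all tested genes. The unadjusted p was as high as 0.139 (edgeR) when 1 library was left out. Among the 20 tested further membrane proteins, 2 were separated and higher and 2 separated and lower. The libraries of the related Tpcn2 overlapped.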
